A study of Capra hircus with 6 samples.

Results

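The Krüppel-like factor (KLF) genes described here are KLF2, KLF3, KLF4, KLF5, KLF6, KLF9, KLF10, KLF11, KLF13 and KLF15. They were taken by name from the 15944 genes of the count table, and the identifiers of 10 of 10 matched the reference gene symbols. The rule did not use their values, but the genes were chosen with earlier results of these data known. The cells were wild-type secondary hair follicle dermal papilla cells (SHF-DPCs) of the goat, grown as primary cultures from the scapular skin of 3-year-old Albas cashmere goats. The ATRA-treated group (n = 3) was kept for 24 h with 100 µM all-trans retinoic acid (ATRA), the natural ligand of the retinoic acid receptors derived from vitamin A, and the control group (n = 3) was kept for 24 h with the same volume of medium at 0 µM. Both groups shared the serum-containing medium, and the labels give all 6 libraries the same batch. According to the study's methods the cells of a group came from separate animals. Whether libraries of the 2 groups with the same number shared an animal is not stated.

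KLF proteins are transcription factors that bind GC-rich and CACCC elements through zinc fingers at the end of the protein, while the rest of the protein differs between members and decides which cofactors are recruited. KLF2, KLF4, KLF5 and KLF6 carry activating regions, KLF3 recruits the corepressor CtBP, and KLF9, KLF10, KLF11 and KLF13 recruit the corepressor Sin3A. In skin, KLF4 is known for its part in the epidermal barrier, KLF5 for dividing epithelial cells, and KLF9 and KLF15 for their induction by glucocorticoids, while KLF10 and KLF11 were first described as early genes of the TGF-β response.

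The libraries held between 36887160 and 38012771 counts each in the control group, and between 35532339 and 36870939 after ATRA. Normalized CPM (read counts relative to the library's scaled size) below were scaled by TMM, whose factors lay between 0.842 and 0.851 for control libraries and between 1.16 and 1.20 for ATRA libraries. With this scaling the median log2 fold change (log2FC, ATRA over control) of the 12588 genes tested was 0.04, and dividing by library size only moved it to 0.52, so changes below are relative to that middle. The quasi-likelihood test of edgeR, two-sided, was run on every gene that passed the filter, and adjusted p is by Benjamini-Hochberg over the 12588 genes. Among these genes 40.9% were called higher in the ATRA-treated group and 38.7% lower (adjusted p under 0.05). Of the markers of the labelled cell type, ACTA2, VCAN, LEF1, PDGFRA, COL1A1, COL3A1 and VIM were detected in every library, whereas PROM1, ALPL and CORIN had 1 count each over the 6 libraries. In bulk libraries, fewer cells of a type and less RNA per cell cannot be told apart.

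With ATRA most of the KLF genes tested were lower, KLF5 and KLF6 by the largest log2FC of the group. Of the 10 genes, 9 passed the filter on low counts. KLF2, KLF3, KLF5, KLF6, KLF9, KLF10 and KLF13 (7 of 9) were lower, beside a background of 38.7%, and KLF4 and KLF11 (2 of 9) were higher, beside a background of 40.9%. Dividing by library size only left 5 lower and 2 higher, with KLF3 and KLF9 no longer lower, and split all genes tested into 7921 higher and 2861 lower, against 5151 and 4877 with TMM. The median log2FC of the 9 genes was -0.72, with a range from -2.45 to 0.56, against a median of 0.04 over the 12588 genes. At the study's thresholds for a differentially expressed gene (|log2FC| above 1 and an unadjusted p under 0.05), KLF2, KLF5, KLF6 and KLF10 (4 of 9) were lower, beside 17.3% of the genes tested that were lower and 13.7% that were higher at these thresholds. With library size only the count was again 4, but KLF11 (log2FC 1.04) stood in the place of KLF10 (log2FC -0.58). In 9 of 9 genes the 3 ATRA libraries lay on one side of the 3 control libraries, as they did in 80.1% of the genes tested.

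**Figure D1:**
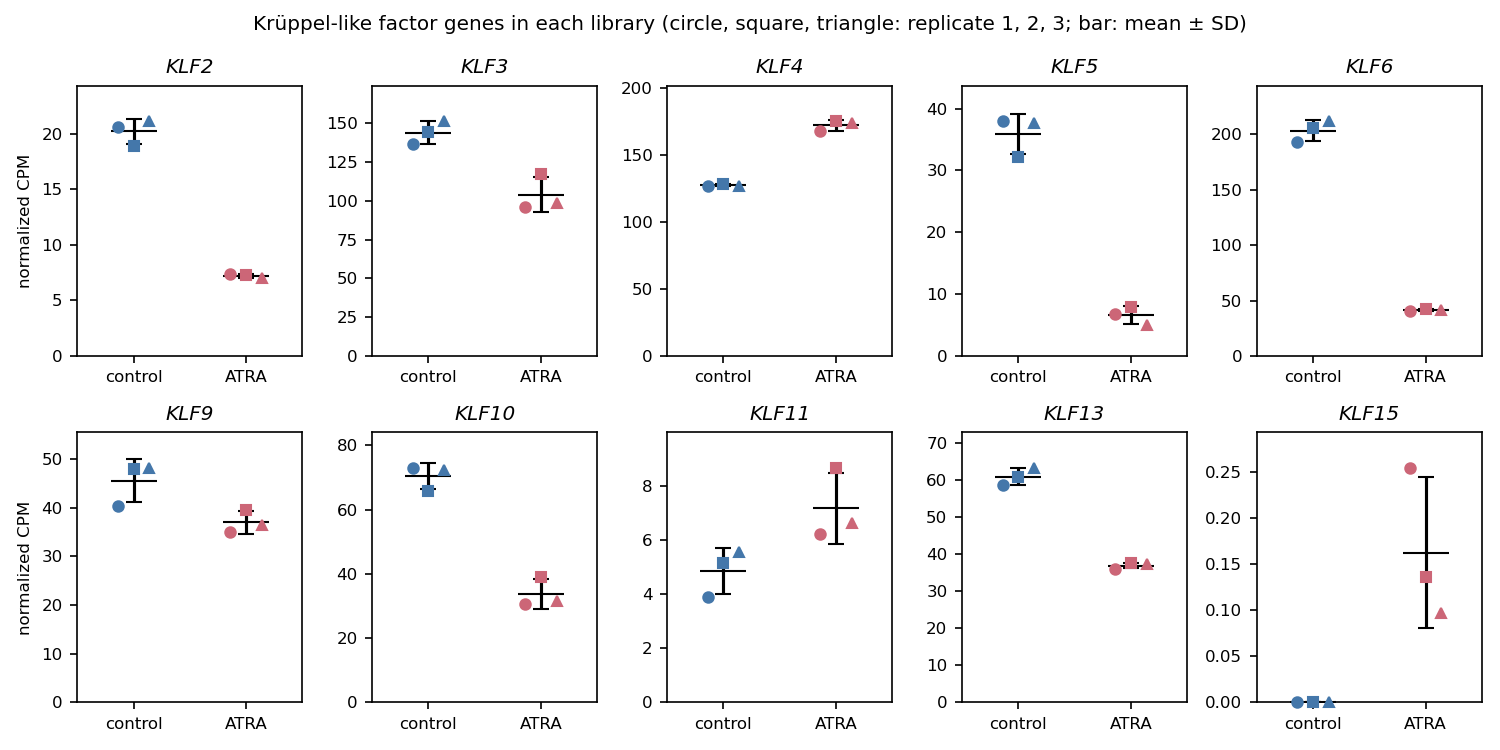
Normalized CPM (vertical axis, linear and starting at 0, with its own range in each panel) of the 10 KLF genes in each control and ATRA library, with circle, square and triangle for replicates 1, 2 and 3 and bars for the mean ± SD of 3 libraries. KLF5 and KLF6 fell to a small part of their control level, KLF4 and KLF11 were higher with ATRA, and the 3 control libraries of KLF15 stand at 0.

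KLF5, a factor that promotes growth in many dividing cells, showed the lowest log2FC of the group. Its CPM was 38.0, 32.2 and 37.6 in the control libraries and 6.78, 7.89 and 5.07 in the ATRA libraries. Every ATRA library lay far below every control library, although the ATRA libraries differed more from one another than is usual in this dataset. Mean KLF5 CPM fell from 35.9 ± 3.23 (SD, n = 3) to 6.58 ± 1.42 (SD, n = 3), which gave a 5.45-fold lower fitted level (log2FC -2.45, SE 0.123, edgeR adjusted p = 2.79e-12). The coefficient of variation (CV) of KLF5 in the ATRA-treated group was 21.5%, against a median of 7.0% over the genes tested. Only 6.42% of the genes tested had a lower log2FC.

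KLF6, which is known as an inducer of the cell-cycle inhibitor CDKN1A, fell nearly as far as KLF5 with much closer replicates. Its CPM was 193, 206 and 212 in the control libraries and 40.7, 42.3 and 41.4 with ATRA. Neither group came near the other. The fitted level was 4.90-fold lower (log2FC -2.29, SE 0.0603, edgeR adjusted p = 8.69e-17), and the CV with ATRA was 1.97%.

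KLF2, known for holding endothelial cells and T cells in a quiescent state, was also lower. The control libraries gave 20.6, 18.9 and 21.1 CPM of KLF2 and the ATRA libraries gave 7.33, 7.30 and 7.01 CPM. The 3 ATRA libraries were almost equal to one another and all below the controls. The fitted level was 2.80-fold lower (log2FC -1.48, SE 0.0938, edgeR adjusted p = 5.02e-11).

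KLF4, one of the factors used to reprogram somatic cells to pluripotency, moved the other way. Its CPM was 127, 128 and 127 in the control libraries and 168, 175 and 173 in the ATRA libraries. The control libraries were nearly identical and all lay under the ATRA libraries. The fitted KLF4 level was 1.35-fold higher (log2FC 0.44, SE 0.0533, edgeR adjusted p = 5.87e-07), and 69.7% of the genes tested had a lower log2FC. Its CV in the control group, 0.571%, compares with a median of 6.27% over the genes tested.

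KLF3, a CtBP-recruiting repressor, gave 136, 144 and 151 CPM in the control libraries and 96.3, 117 and 98.6 CPM with ATRA. ATRA replicate 2 stood above the other two ATRA libraries but below every control library. KLF3 was 1.39-fold lower by the fit (log2FC -0.47, SE 0.0713, edgeR adjusted p = 8.45e-06), and this direction rests on the scaling, since with library size only its log2FC was 0.01 (adjusted p = 0.910). Relative to the median gene, KLF3 stood at -0.51 with both scalings.

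Of the Sin3A-recruiting members, KLF10 changed most. KLF10, an early TGF-β response gene that slows cell division, gave 73.0, 65.7 and 72.2 CPM in the control libraries and 30.5, 39.1 and 31.5 CPM with ATRA. The groups were well apart, with ATRA replicate 2 the highest of the treated libraries. The fitted level was 2.09-fold lower (log2FC -1.06, SE 0.0856, edgeR adjusted p = 2.01e-09). This is close to the threshold of 1, and without ATRA replicate 1 the log2FC was -0.998, just short of it, which left 3 differentially expressed KLF genes.

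KLF11, the nearest relative of KLF10 and likewise a TGF-β early gene, changed in the opposite direction. Its CPM was 3.90, 5.13 and 5.54 in the control libraries and 6.20, 8.66 and 6.62 in the ATRA libraries. The lowest ATRA library was only a little above the highest control library, and the spread was wide, with CVs of 17.6% in the control group and 18.4% with ATRA. KLF11 was 1.47-fold higher by the fit (log2FC 0.56, SE 0.157, edgeR adjusted p = 0.00332). Its log2FC was 0.39 without ATRA replicate 2, and the t.test function of R, which the study's methods name, applied to log2(CPM + 1), did not call it (log2FC 0.48, adjusted p = 0.0789).

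KLF13, a regulator of the chemokine gene CCL5 in T cells, fell with small spread. The control libraries gave 58.8, 60.8 and 63.4 CPM and the ATRA libraries 36.1, 37.5 and 37.3 CPM. The groups did not overlap, and the fitted level was 1.65-fold lower (log2FC -0.72, SE 0.0650, edgeR adjusted p = 8.75e-09).

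KLF9, a target of the glucocorticoid and thyroid hormone receptors, showed the smallest change. Its CPM was 40.4, 48.0 and 48.2 in the control libraries and 34.9, 39.6 and 36.5 with ATRA, so that control replicate 1 came close to ATRA replicate 2. KLF9 was 1.23-fold lower by the fit (log2FC -0.30, SE 0.0801, edgeR adjusted p = 0.00239), but with library size only the log2FC was 0.18 (adjusted p = 0.0564), and the t.test function did not call it with TMM (adjusted p = 0.0707). Relative to the median gene, KLF9 stood at -0.34 with both scalings.

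KLF15, a glucocorticoid-induced regulator of amino acid and glucose metabolism, had counts of 0, 0 and 0 in the control libraries and 11, 6 and 4 in the ATRA libraries. These 21 counts stayed under the expression filter, so KLF15 was not tested. Against a floor of 3 counts over the control group, its CPM was at least 5.19-fold higher with ATRA, at levels of 0.254, 0.136 and 0.0967 CPM. A count of 0 allows up to that floor, so KLF15 was not detectable in the control group at this depth rather than shown to be absent. The row described as KLF15 carries the symbol CFAP100 in another column of the table, so which gene its reads belong to is uncertain.

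**Figure D2:**
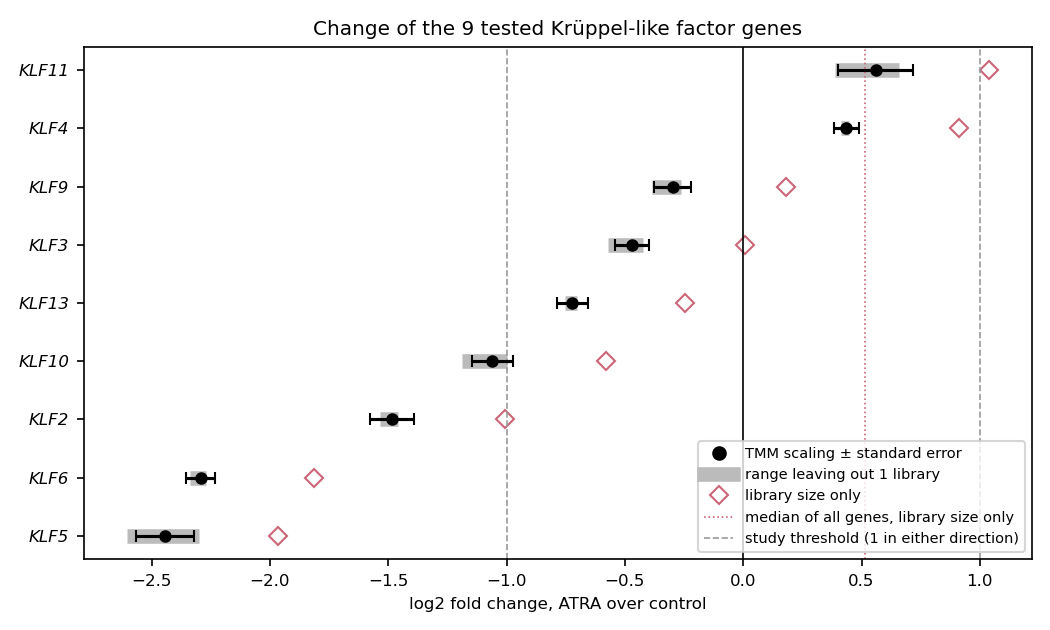
log2FC (horizontal axis, ATRA over control) of the 9 tested KLF genes, with black points and bars for the TMM-scaled value ± SE, grey bars for the range when 1 library is left out, and open diamonds for scaling by library size only, with the median of all genes under that scaling as a dotted line. The diamonds lie to the right of the points throughout, those of KLF3 and KLF9 at or past 0, and the points of KLF5, KLF6, KLF2 and KLF10 lie below -1.

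Ratios between related KLF genes within a library do not depend on the scaling. The 6 pairs given are a description only, because they were chosen after the values were seen. No share over other gene pairs was computed. The ratio of KLF4 counts to KLF2 counts was 6.17, 6.78 and 6.01 in the control libraries and 22.8, 23.99 and 24.7 with ATRA, a 3.78-fold higher ratio (log2 difference 1.92, SE 0.0628). KLF4 over KLF5 went from 3.34, 3.98 and 3.37 to 24.7, 22.2 and 34.2, which is 7.48-fold higher (log2 difference 2.90, SE 0.204). KLF11 over KLF10 went from 0.0534, 0.0782 and 0.0767 to 0.203, 0.222 and 0.210, which is 3.09-fold higher (log2 difference 1.63, SE 0.183). In these 3 pairs the ATRA libraries were far from the controls, so KLF4 gained on KLF2 and KLF5, and KLF11 gained on KLF10, whatever the scaling. KLF7 over KLF6, a pair of close relatives, went from 0.362, 0.370 and 0.371 to 1.06, 1.13 and 1.07, which is 2.95-fold higher (log2 difference 1.56, SE 0.0292), since KLF6 fell further than KLF7. KLF9 over KLF13 was 1.34-fold higher (log2 difference 0.43, SE 0.0715), with no overlap between the groups. KLF3 over KLF12, both CtBP-recruiting, was 31.4, 37.3 and 32.4 in the control libraries and 37.8, 37.1 and 40.01 with ATRA, so the groups overlapped. A ratio of counts also carries the lengths of both genes, so its size in one group says nothing of which gene was more abundant.

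**Figure D3:**
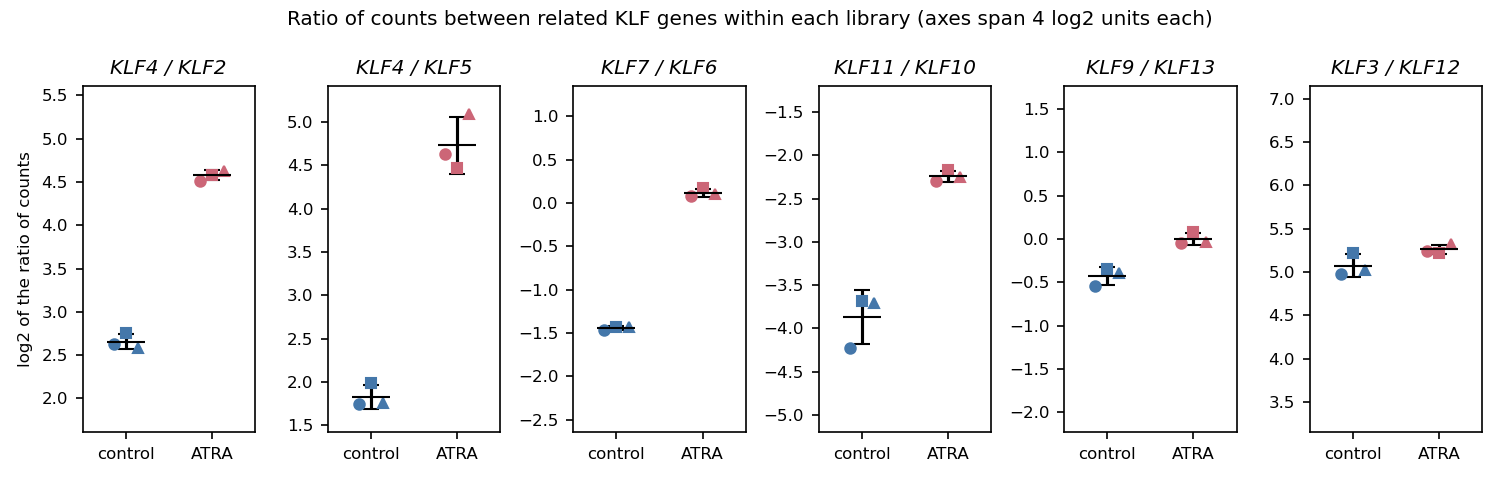
log2 of the ratio of counts of 2 related KLF genes within each library (vertical axis, each panel spanning the same number of log2 units), with circle, square and triangle for replicates 1, 2 and 3 and bars for the mean ± SD of 3 libraries. The ratio was higher in every ATRA library than in every control library for 5 of 6 pairs, and for KLF3 over KLF12 the groups overlap. The pairs were chosen after the values were seen, and no share over other gene pairs was computed.

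Of 8 further KLF genes listed, 6 were in the table and 3 could be tested. Of these, 1 was higher and 2 lower, beside 40.9% higher and 38.7% lower of all genes tested. KLF7, a factor of neuronal and fat cell differentiation, fell from 74.8 ± 4.56 to 45.1 ± 2.34 CPM (SD, n = 3, log2FC -0.73, SE 0.0680, edgeR adjusted p = 1.41e-08). KLF12, a CtBP-recruiting repressor, fell from 4.29 ± 0.406 to 2.72 ± 0.375 CPM (SD, n = 3, log2FC -0.66, edgeR adjusted p = 0.00143), a call that library size only removed (log2FC -0.18). KLF16, a Sin3A-recruiting member, rose from 45.9 ± 0.713 to 56.2 ± 4.92 CPM (SD, n = 3, log2FC 0.29, edgeR adjusted p = 0.00125), a call that the t.test function did not make (adjusted p = 0.0792). The 3 genes under the filter were near the limit of detection. The erythroid factor KLF1 had 1 count in the control group and 9 with ATRA, a CPM ratio of 6.68 with an exact 95% counting interval from 0.925 to 293. KLF8, another CtBP-recruiting repressor, had 7 counts in the control group and 1 with ATRA, a ratio of control over ATRA of 9.43 with an interval from 1.21 to 425. KLF14 had a single count, in ATRA replicate 3. These intervals cover counting error only. KLF17 and KLF18 were not analysed here.

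The SP genes encode the factors most closely related to the KLF proteins, and bind the same GC-rich elements. Of 9 listed, 7 were in the table and 5 were tested. With TMM 2 were higher, 2 lower and 1 did not pass, beside 40.9% higher and 38.7% lower of all genes tested. With library size only 3 were higher and the other 2 did not pass. SP2 was lower with TMM (log2FC -0.64, edgeR adjusted p = 2.05e-05) but lost the call with library size only (log2FC -0.16, adjusted p = 0.159), SP4 was higher (log2FC 0.50, edgeR adjusted p = 0.000958), and SP3 was lower with TMM (log2FC -0.35, edgeR adjusted p = 0.00348) but not with library size only (log2FC 0.13). SP1, the broadly expressed activator, gave 82.7 ± 5.29 CPM in the control group and 90.8 ± 3.71 with ATRA (SD, n = 3, log2FC 0.13, edgeR adjusted p = 0.0600). SP1 was called higher under 5 alternatives, among them library size only (log2FC 0.61, adjusted p = 2.39e-07), upper-quartile scaling (log2FC 0.21, adjusted p = 0.00466) and the fit without control replicate 3 (log2FC 0.18, adjusted p = 0.0297). The other gene called higher, SP6, was named after its values were seen and rests on 5, 3 and 5 counts against 15, 15 and 10 (edgeR adjusted p = 0.0397), a call that DESeq2 did not make (adjusted p = 0.139).

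KLF proteins act through corepressors and coactivators. Of 11 such genes, 11 were tested, 7 were higher and 4 lower, beside 40.9% higher and 38.7% lower of all genes tested. Their median log2FC was 0.20, against 0.04 over all genes tested. With library size only 9 were higher and 1 lower. SIN3B, the paralog of SIN3A, rose from 47.9 ± 4.12 to 94.7 ± 0.975 CPM (SD, n = 3, log2FC 0.98, edgeR adjusted p = 1.78e-10). HDAC1, a histone deacetylase of the Sin3 complex, fell from 103 ± 1.87 to 54.5 ± 0.327 CPM (SD, n = 3, log2FC -0.92, edgeR adjusted p = 4.32e-11). With TMM HDAC2 was higher (log2FC 0.17, edgeR adjusted p = 0.0140) and HDAC3 lower (log2FC -0.20, edgeR adjusted p = 0.00367). Both were named after their values were seen. The acetyltransferase EP300, which KLF4 and KLF5 can recruit, was higher (log2FC 0.56, edgeR adjusted p = 1.25e-06). With TMM all 11 stayed within 1 log2 unit of no change, whereas SIN3B reached 1.46 and EP300 1.03 with library size only, and SIN3B reached 1.06 with upper-quartile scaling and 1.04 without control replicate 3.

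Genes upstream of the KLF group were called in both directions, beside 40.9% higher and 38.7% lower of all genes tested. The ERK5-MEF2 cascade, with the CCM proteins that restrain it, is the known inducer of KLF2 and KLF4. Of the 10 genes of this list tested, 5 were higher, 4 were lower and 1 did not pass (median log2FC 0.08). With library size only 6 were higher and 2 lower. Among the 4 lower genes were CCM2 (log2FC -0.45, edgeR adjusted p = 1.49e-05) and PDCD10 (log2FC -0.58, edgeR adjusted p = 4.80e-07), which encode CCM proteins. Both were named after their values were seen, and library size only removed both calls. MAP2K5, the kinase that activates ERK5, rose (log2FC 1.05, edgeR adjusted p = 1.01e-10). MAPK7, which encodes ERK5, fell (log2FC -0.78, edgeR adjusted p = 6.39e-08), as did the transcription factor MEF2C (log2FC -0.94, edgeR adjusted p = 1.58e-07). The glucocorticoid list, which holds the receptor genes NR3C1 and NR3C2 and 6 genes induced through them as KLF9 and KLF15 are, had 4 higher and 4 lower of 8 tested (median log2FC -0.23), against 4 higher and 2 lower with library size only. Without the receptor genes, 3 were higher and 3 lower. The kinase SGK1 rose (log2FC 2.75, edgeR adjusted p = 3.32e-18) and so did the clock gene PER1 (log2FC 2.18, edgeR adjusted p = 6.98e-14), whereas the zinc finger gene ZBTB16 fell (log2FC -3.36, edgeR adjusted p = 7.47e-09). Of 7 early TGF-β response genes, the class to which KLF10 and KLF11 belong, 3 were higher, 3 lower and 1 did not pass (median log2FC -0.16), against 4 higher and 3 lower with library size only. CTGF, a matricellular protein, fell from 1249 ± 33.2 to 128 ± 6.37 CPM (SD, n = 3, log2FC -3.29, edgeR adjusted p = 1.07e-18). The AP-1 gene JUNB rose (log2FC 2.28, edgeR adjusted p = 7.15e-17).

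The ubiquitin ligases that are known to act on KLF proteins were measured as transcripts, and protein levels were not measured in these libraries. Of 9 tested, 4 were higher and 5 lower (median log2FC -0.33), beside 40.9% higher and 38.7% lower of all genes tested. With library size only 4 were higher and 3 lower. FBXO32, which targets KLF4, fell from 493 ± 9.30 to 94.99 ± 2.94 CPM (SD, n = 3, log2FC -2.38, edgeR adjusted p = 2.04e-17). SMURF2 (log2FC -0.82, edgeR adjusted p = 1.54e-10) and ITCH (log2FC -0.67, edgeR adjusted p = 5.66e-09) were also lower.

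Genes known as targets of KLF proteins in other cell types were examined as lists, beside 40.9% higher and 38.7% lower of all genes tested. Of the vascular genes induced by KLF2 or KLF4, 4 of 5 were in the table and 2 were tested, both higher. TEK, the angiopoietin receptor, was named after its values were seen (log2FC 0.87, edgeR adjusted p = 0.0122), and it lost the call without ATRA replicate 1 (adjusted p = 0.0538) or without control replicate 3 (adjusted p = 0.0729). THBD, the thrombin receptor thrombomodulin, rose from 131 ± 6.54 to 472 ± 25.7 CPM (SD, n = 3, log2FC 1.85, edgeR adjusted p = 3.06e-15). The nitric oxide synthase gene NOS3 had 0 counts in the control group and 5 with ATRA. Of the inflammatory genes that KLF2 or KLF4 repress, 5 of 8 were tested, with 3 higher and 2 lower (median log2FC 1.11). The neutrophil chemokine CXCL8 rose from 15.6 ± 1.12 to 223 ± 12.0 CPM (SD, n = 3, log2FC 3.84, edgeR adjusted p = 8.20e-19). The vasoconstrictor gene EDN1 fell from 786, 768 and 825 counts to 1 count in each ATRA library, a CPM ratio of control over ATRA of 1069 with an exact 95% counting interval from 365 to 5186 (edgeR adjusted p = 4.43e-18). The members of this list thus stood at opposite ends of the range of log2FC.

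The 3 inhibitor genes induced by KLF4 or KLF6 were higher (median log2FC 0.69), beside 40.9% of all genes tested. CDKN1A, which arrests cells before DNA replication, rose from 155 ± 3.91 to 616 ± 13.0 CPM (SD, n = 3, log2FC 1.99, edgeR adjusted p = 2.74e-16). CDKN1B rose less (log2FC 0.50, edgeR adjusted p = 5.11e-06), and CDKN1C, named after its values were seen, passed narrowly (log2FC 0.69, edgeR adjusted p = 0.0491), a call that DESeq2 did not make (adjusted p = 0.110). Of the 6 cell-cycle genes that KLF4 represses, 4 were lower and 2 higher (median log2FC -2.42), beside 38.7% lower and 40.9% higher of all genes tested. BIRC5, the mitotic survival protein survivin, fell from 52.0 ± 1.11 to 1.61 ± 0.215 CPM (SD, n = 3, log2FC -5.01, edgeR adjusted p = 2.69e-18). The mitotic cyclin CCNB1 (log2FC -4.70, edgeR adjusted p = 3.55e-18) and its kinase CDK1 (log2FC -3.02, edgeR adjusted p = 3.27e-16) fell as well. The 2 higher genes were the cyclin gene CCNE1 (log2FC 1.01, edgeR adjusted p = 1.12e-07) and the polyamine enzyme gene ODC1 (log2FC 0.50, edgeR adjusted p = 9.44e-08). Both were named after their values were seen.

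The contractile genes that KLF4 represses in smooth muscle had the lowest median of these lists, with a median log2FC of -5.59. Of 7 tested, 6 were lower, beside 38.7% of all genes tested, and 1 did not pass. ACTA2, smooth muscle actin, fell from 6582 ± 462 to 8.37 ± 0.829 CPM (SD, n = 3, log2FC -9.62, edgeR adjusted p = 1.19e-21), and the actin-binding protein gene TAGLN fell from 3017 ± 98.9 to 37.8 ± 4.13 CPM (SD, n = 3, log2FC -6.32, edgeR adjusted p = 1.84e-20). ACTG2 had 8877, 8424 and 8607 counts in the control libraries and 7, 13 and 3 with ATRA, but it is nearly identical in sequence to ACTA2, so reads of these genes may have been divided wrongly. Of the growth genes that KLF5 induces, 4 of 5 were tested (median log2FC -1.42) and 3 were lower, beside 38.7% of all genes tested. The 3 lower genes were the cytoskeletal myosin gene MYH10 (log2FC -2.65, edgeR adjusted p = 9.26e-18), the cyclin gene CCND1 (log2FC -1.83, edgeR adjusted p = 5.86e-16) and the growth factor gene PDGFA (log2FC -1.02, edgeR adjusted p = 5.35e-11). CCND1 also stands among the cell-cycle genes above, so both lists share its value. Of the metabolic genes tied to KLF15, 5 of 8 were tested (median log2FC -0.36). With TMM 1 was higher, 3 were lower and 1 did not pass, beside 40.9% higher and 38.7% lower of all genes tested. With library size only 2 were higher and 1 lower. In the breakdown of branched-chain amino acids, BCAT2, which takes the first step, was lower (log2FC -1.24, edgeR adjusted p = 5.28e-11) and BCKDHA was higher (log2FC 0.81, edgeR adjusted p = 6.85e-07), while BCKDHB was lower with TMM (log2FC -0.37, edgeR adjusted p = 0.00121) but not with library size only (log2FC 0.10). The list genes that did not pass, named after their values were seen, were KRIT1 of the CCM proteins (edgeR adjusted p = 0.974), SMAD7 of the TGF-β list (0.129), MYH11 of the contractile list (0.660), EGR1 of the growth list (0.172) and TWIST2 of the metabolic list (0.760). With library size only, KRIT1 (log2FC 0.48), SMAD7 (log2FC 0.32), EGR1 (log2FC 0.37) and TWIST2 (log2FC 0.50) were called higher, and without control replicate 2 SMAD7 (log2FC -0.23, adjusted p = 0.0427) and EGR1 (log2FC -0.20, adjusted p = 0.00694) were called lower.

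**Figure D4:**
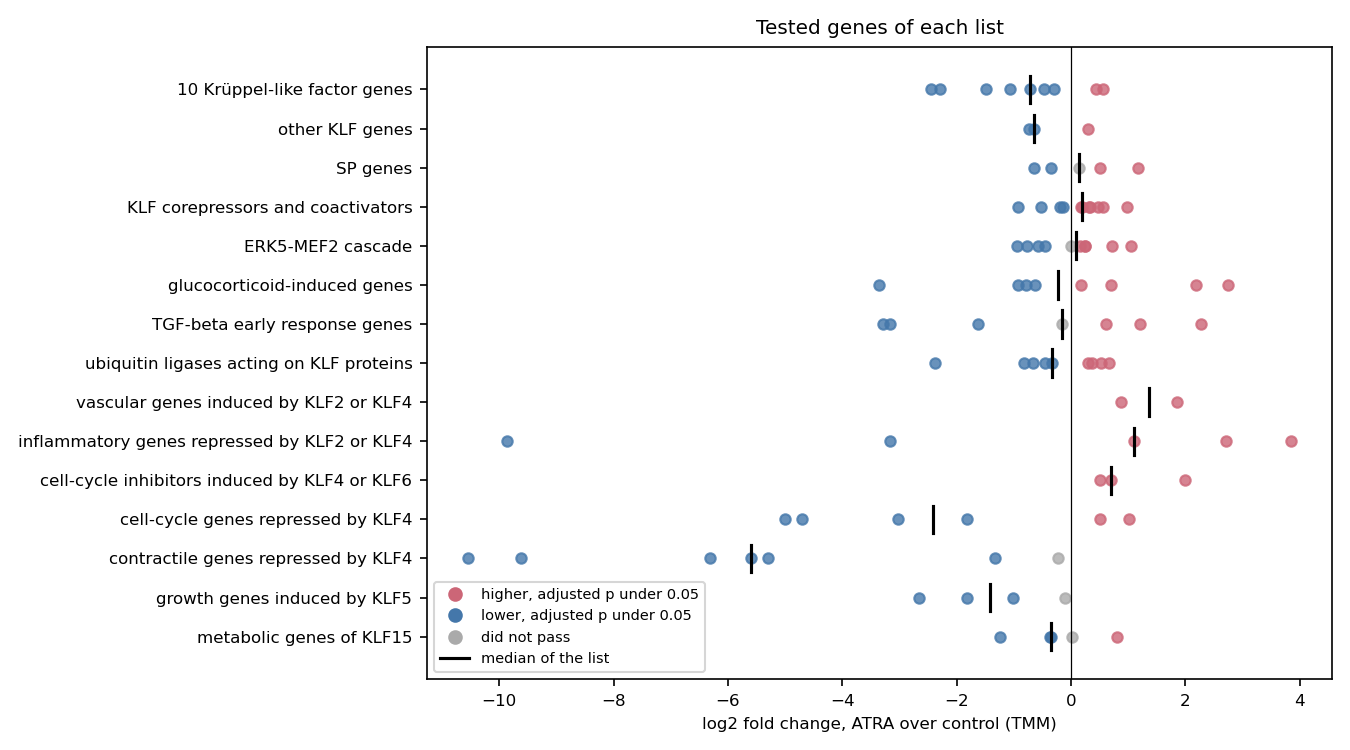
log2FC (horizontal axis, ATRA over control, TMM scaling) of each tested gene in the KLF group and in the lists of relatives, cofactors, upstream genes, ubiquitin ligases and targets, with red for higher and blue for lower at an adjusted p under 0.05, grey for genes that did not pass, and a black tick for the median of the list. With this scaling the cofactors stay within 1 log2 unit of 0, while the contractile list has its median at -5.59, and of the genes drawn in blue here, KLF3, KLF9 and 14 of the 40 outside the KLF group were not lower with library size only.

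Markers of cell types also changed, in both directions, and their part in these results was not tested. The summed CPM of the 11 dermal papilla and fibroblast markers ran from 60511 to 62933 in the control group and from 2502 to 2607 with ATRA. Most of that sum was COL1A1 (mean CPM 27440 in the control group and 558 with ATRA) and VIM (19158 and 1595). Of these markers, 7 of the 7 tested were lower, beside 38.7% of all genes tested. LEF1 fell least among them (log2FC -0.54, edgeR adjusted p = 0.000108). ACTA2 also stands among the contractile genes above, so both lists share its value. SOX2, a dermal papilla marker that was not tested, went the other way, from 5, 0 and 2 counts to 10, 16 and 9, a CPM ratio of ATRA over control of 3.71 with an exact 95% counting interval from 1.62 to 9.90. The 6 keratinocyte markers found, of 9 listed, had a summed CPM of 3.11 to 4.98 in the control group and 5.37 to 5.97 with ATRA. Most of it was KRT10, which rose (log2FC 0.82, edgeR adjusted p = 0.000328), and TP63 had a single count in all. KRT14 and KRT5, which were not tested, went the other way. KRT14 went from 20, 14 and 10 counts to 3, 0 and 0, and KRT5 from 2, 7 and 3 counts to 0 in every ATRA library. For the endothelium, where KLF2 and KLF4 are best known, 6 of 9 markers were found and their sum ran from 81.7 to 89.6 CPM in the control group and from 15.1 to 16.5 with ATRA. Most of that sum was ERG, which fell (log2FC -3.21, edgeR adjusted p = 3.09e-17). KDR went from 5, 6 and 10 counts to 2, 1 and 0, whereas PECAM1 went from 0 counts in every control library to 242, 340 and 206. VWF did not pass (log2FC 0.06, edgeR adjusted p = 0.909), and CDH5 had a single count. The leukocyte markers (6 of 7 found) went from between 9.61 and 13.2 CPM to between 41.6 and 44.4, nearly all of it CD14 (log2FC 2.18, edgeR adjusted p = 5.35e-12) and CD68 (log2FC 1.41, edgeR adjusted p = 2.18e-06), with ITGAM at 3 counts or fewer in each group. The melanocyte markers (3 of 6 found) went from between 16.1 and 17.6 CPM to between 32.2 and 39.0, mostly MITF (log2FC 1.33, edgeR adjusted p = 1.99e-10), with TYRP1 at a single count. PMEL, the other melanocyte marker tested, was lower (log2FC -0.90, edgeR adjusted p = 7.61e-05).

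Library differences also touched the KLF genes. ATRA replicate 2 had the highest CPM of its group in 8 of the 9 KLF genes tested, all but KLF2, and in 38.3% of all genes tested. In the control group, replicate 3 was highest in 6 of 9, against 34.2% of all genes tested. Leaving out ATRA replicate 2 left the direction of the 9 genes as it was, and each stayed at an adjusted p under 0.05.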

How the data were processed

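RNA-seq was performed by the study on poly(A) mRNA of 3 control and 3 ATRA-treated cultures. The authors deposited a table of raw read counts per gene, as whole numbers not normalized, in the same table as GO and KEGG terms. The study's methods name fastp and TrimGalore 0.6.6 for read cleaning, and the submitters' processing notes name HISAT2, featureCounts and DESeq2 without versions. The genome build, the annotation and the strand setting are not given in the sources used here, so reads from overlapping or near-identical genes may be divided wrongly, and no coordinates or sequences are given.

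Genes were kept by edgeR's filterByExpr (12588 of 15944), scaled by TMM and tested with the robust quasi-likelihood test of edgeR with all 6 libraries and no covariate, with a prior count of 0.125 and Benjamini-Hochberg adjustment. The SE is |log2FC| over the square root of F. CPM used the counts of the tested genes times the TMM factor as library size. Replicates differed by more than sampling noise (chi-square between 5.01 and 18.4 per degree of freedom). p-values cover the spread between these cultures only.

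The KLF genes and the gene lists were chosen with earlier results of these data known. Of each list, up to 3 genes with the largest |log2FC|, an adjusted p under 0.05 and a mean CPM of at least 1 were named, plus every other KLF gene. 1 gene that this rule would name is not reported here. CCN2 and CCN1 were matched as CTGF and CYR61 after the table was seen. Alternatives were the t.test function of R applied to log2(CPM + 1), DESeq2, RLE, upper-quartile and library size scaling, other filters, a prior count of 2, stricter thresholds, the replicate number as a block and leaving out each library. The fits were tested on simulated data in which few genes changed, evenly in both directions. A change as wide as in these libraries was not simulated, so the scaling was not tested there. Tables and figures were made in Python 3.11.15 with SciPy 1.17.1 and matplotlib 3.10.9, and fits in R 4.3.3 with DESeq2 1.42.0, edgeR 4.0.16 and limma 3.58.1.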

Additional observations from a re-analysis of the deposited data

How the results depend on the processing

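Of 135 values of the 9 tested KLF genes over 15 alternatives, 131 kept their direction and their side of the threshold. With library size only, which moved the median of all genes to 0.52, the log2FC of KLF3 (0.0095), KLF9 (0.18), SP3 (0.13), BCKDHB (0.10), SMAD7 (0.32), EGR1 (0.37), KRIT1 (0.48) and MYH11 (0.24) turned positive. So did those of WWP1 (0.15), ALDH6A1 (0.12), CCM2 (0.030), VHL (0.017), CTBP1 (0.33) and HDAC3 (0.28). Of 40 genes of the other lists that were lower with TMM, 14 were not lower with library size only. Of these 14, 2 were called higher, CTBP1 (edgeR adjusted p = 2.64e-05) and HDAC3 (edgeR adjusted p = 0.000220). KRIT1, whose log2FC was near 0, was also positive with upper-quartile scaling (0.074) and with the CPM filter (0.010). Leaving out 1 library at a time gave log2FC on both sides of 0 for KRIT1 (-0.054 to 0.034), MYH11 (-0.66 to 0.38) and TWIST2 (-0.015 to 0.066), and these did not pass the test with all 6 libraries. With the t.test function of R 1 KLF gene was higher and 6 were lower, as KLF9 and KLF11 were not called. With |log2FC| above 2 the count of differentially expressed KLF genes was 2, KLF5 and KLF6. It was 3 with upper-quartile scaling, which put KLF10 at -0.98. Without the filter on low counts KLF15 was tested and called, giving 3 higher and 5 differentially expressed. Leaving out 1 library at a time gave 2 higher and 7 lower each time, and from 3 to 4 differentially expressed. The replicate block gave 2 higher and 7 lower as well, and 5123 higher and 4869 lower over all genes. Same-numbered libraries did not deviate together (correlations from -0.12 to 0.14 over 11548 genes), and not every library correlated best with its own number, so the numbers were not taken to pair the libraries. KLF1, KLF8, KLF14 and KLF15 were limited by depth, with at most 11 counts in a library.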

Other observations

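The deposited table assigns some KLF genes to KEGG pathways, which were looked at after the table was seen and are given as counts. KLF2 is listed under the FoxO signaling pathway, where 43 of 106 tested genes were higher and 45 lower with ATRA (median log2FC -0.03), and under the Apelin signaling pathway, where 27 of 107 were higher and 62 lower (median log2FC -0.42). It is also listed under fluid shear stress and atherosclerosis, the setting in which its induction by blood flow is best known, where 44 of 110 tested genes were higher and 52 lower (median log2FC -0.12). KLF4 is listed under the pathways that regulate pluripotency of stem cells, where 45 of 103 were higher and 41 lower (median log2FC 0.06). KLF3 is listed under transcriptional misregulation in cancer, where 55 of 133 were higher and 58 lower (median log2FC 0.06). Over all genes tested, 40.9% were higher and 38.7% lower.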
